A study of Rattus norvegicus with 5 samples.

Results

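GFP+ cells, sorted for a green fluorescent protein driven by the *Trh* promoter, were compared with GFP+/- cells, the unselected mixture of cultures transfected in the same way, on rat oligonucleotide arrays. Both came from primary cultures of the hypothalamus of Wistar rat embryos at day 17, transfected 24 h after seeding with a plasmid carrying the minimal *Trh* promoter and collected 48 h later. GFP+/- cells had passed through the sorter too but were not selected, so that population holds GFP+ cells as well. NT cells, from cultures without transfection, gave 1 further array, which entered the fit and is given as a reference only. The transfection was transient and the promoter a short fragment, so GFP reports the activity of that fragment in the cells that took up the plasmid, and all GFP+ and GFP+/- cells shared transfection and passage through the sorter. The GFP+ RNA was a pool of 6 experiments and the GFP+/- and NT RNAs were pools of 3 others, so that population and experiment cannot be told apart. The labels call the 2 arrays of a population biological replicates, whereas the methods describe them as aliquots of one RNA, so p-values measure the spread between arrays only.

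The transcripts described are those that the gene tables in the study's main text do not name. Some of them are named in its running text or supplement. Of 8740 probe sets that are not controls, 135 belong to the 54 genes of those tables. The others stand for 4682 genes, and the probe set that was brightest on average stands for a gene. Probe sets with a mean signal above 175 were read first and are called bright. They number 3586 of 8740 (41.0%), of which 3493 lie outside the tables, and they stand for 2289 of the 4682 genes. A further 1426 probe sets have no gene and 308 have several genes in the platform annotation.

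TRH (thyrotropin-releasing hormone) is a small peptide cut from a larger precursor and stored in dense-core granules. Neurons of the paraventricular nucleus release it to drive thyrotropin secretion from the pituitary, and other hypothalamic neurons use it as a transmitter. Cultures of fetal hypothalamus hold, beside neurons and glial precursors, cells of the meninges and vessels, which make collagen and contractile proteins and spread on the dish.

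Differences above 2-fold between the arrays of a population were found in 3.26% of bright probe sets for GFP+ and in 1.03% for GFP+/- cells, against 15.5% and 13.2% of all probe sets. The 3' over 5' signal ratio of the GAPDH control probe sets was 14.6 and 17.6 on the GFP+ arrays, 12.7 and 14.2 on the GFP+/- arrays and 5.45 on the NT array. Both GFP+ ratios lay above both GFP+/- ratios for GAPDH, whereas those of beta-actin overlapped, at 22.9 and 18.7 against 31.4 and 14.4, with 10.9 on the NT array. The part of RNA quality in the differences below was not tested. *Trh* itself, read from a dim probe set, had signals of 115 and 141 on the GFP+, 109 and 106 on the GFP+/- and 96.6 on the NT array. Its arrays did not overlap, but the log2 difference of 0.24 (SE 0.29) did not pass the test over all probe sets (limma, adjusted p = 0.761). Its second probe set, dimmer still, overlapped at 89.5 and 40.2 against 86.8 and 51.0, with 122 on the NT array (-0.15). No probe set for GFP was used here, so the arrays themselves gave no direct readout of the sort. By flow cytometry of the sorted cells the study reports a strong enrichment of GFP+ cells. By RT-PCR it reports increased *Trh* and *tau* and diminished *gfap* in GFP+ cells. In bulk RNA of this kind, fewer cells of a type and less of its RNA per cell cannot be told apart.

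Against GFP+/- cells, markers of neurons summed to higher signals in GFP+ cells, with none past the test. Those of fibroblasts summed to much lower ones. Signals of the 5 neuronal markers with a probe set summed to 25187 and 21476 in GFP+ and 16927 and 18292 in GFP+/- cells. The NT array stood above both populations at 30816. Other bright probe sets differed by -0.94 for *Map2* and by 0.54 and 0.09 for *Mapt* on the log2 scale. Signals of 7 fibroblast markers summed to 5331 and 11289 against 27989.6 and 28372, with the NT array inside the GFP+ range at 10577. All 7 fibroblast markers had both GFP+ arrays below both GFP+/- arrays and 5 passed the test. Summed signals of 5 mural and smooth muscle markers were 1902 and 3656 against 9246 and 11366, with 1454 on the NT array. Of these 5, 3 had both GFP+ arrays below both GFP+/- arrays and 2 had them above. In these sums *Acta2* alone had 1053 and 2375 against 6561 and 9059. Summed signals of 5 microglial markers were higher in GFP+ cells, at 496 and 456 against 248 and 209, with 1288 on the NT array. Among the microglial markers 3 of the 5 had both GFP+ arrays above both GFP+/- arrays. Summed signals of 6 astrocyte markers overlapped, at 11689 and 15438 against 13441 and 13676. So did those of the 4 TRH neuron markers with a probe set, *Trh*, *Pcsk2*, *Cpe* and *Pam*. They were 26881 and 25541 against 20940.4 and 25949, with 22764 on the NT array. The first GFP+ array had the lowest fibroblast and mural sums of the 4 GFP+ and GFP+/- arrays. *Mbp*, the defining marker of mature oligodendrocytes, had signals between 28.1 and 49.1 on the 4 arrays, and *Pecam1*, that of endothelium, between 80.8 and 151. *Gfap*, *Cd68*, *Tubb3* and *Pcsk1* had no probe set under that name.

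A log2 difference is given as GFP+ minus GFP+/- and was tested with limma, with p-values adjusted by Benjamini-Hochberg. Over all 8740 probe sets none passed at 0.05 (0%, smallest adjusted p = 0.0829), while 800 higher and 415 lower ones had an unadjusted p under 0.05. Among bright probe sets alone, 80 were higher (2.23%) and 64 lower (1.78%). Among bright genes outside the tables, 26 of 2289 rose (1.14%) and 38 fell (1.66%). Both GFP+ arrays lay above both GFP+/- arrays in 695 of these genes (30.4%) and below them in 485 (21.2%). The shares of members below stand against these 4 background shares. Of the 26 genes that rose 8 were bright in GFP+ cells only, namely *Aldh1l1*, *Chka*, *Cxcl10*, *Cyp2c23*, *H4cl1*, *Lig4*, *Nefl* and *Nptx1*. Of the 38 that fell 4 were bright in GFP+/- cells only, namely *Gadd45a*, *Hba-a3*, *Pla1a* and *Tpm2*. By that choice these 12 had to differ. The first GFP+ array weighed most. Without it 0 of the 26 higher genes passed (limma, 15 higher probe sets in all) and 8 of the 38 lower genes did, whereas without the second GFP+ array 17 and 33 of them passed. The median log2 difference of all 4682 genes was 0.101 and moved to -0.02 with quantile normalization and to -0.05 with equal medians. List medians are therefore given relative to it, over all members of a list, dim ones included.

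**Figure D1:**
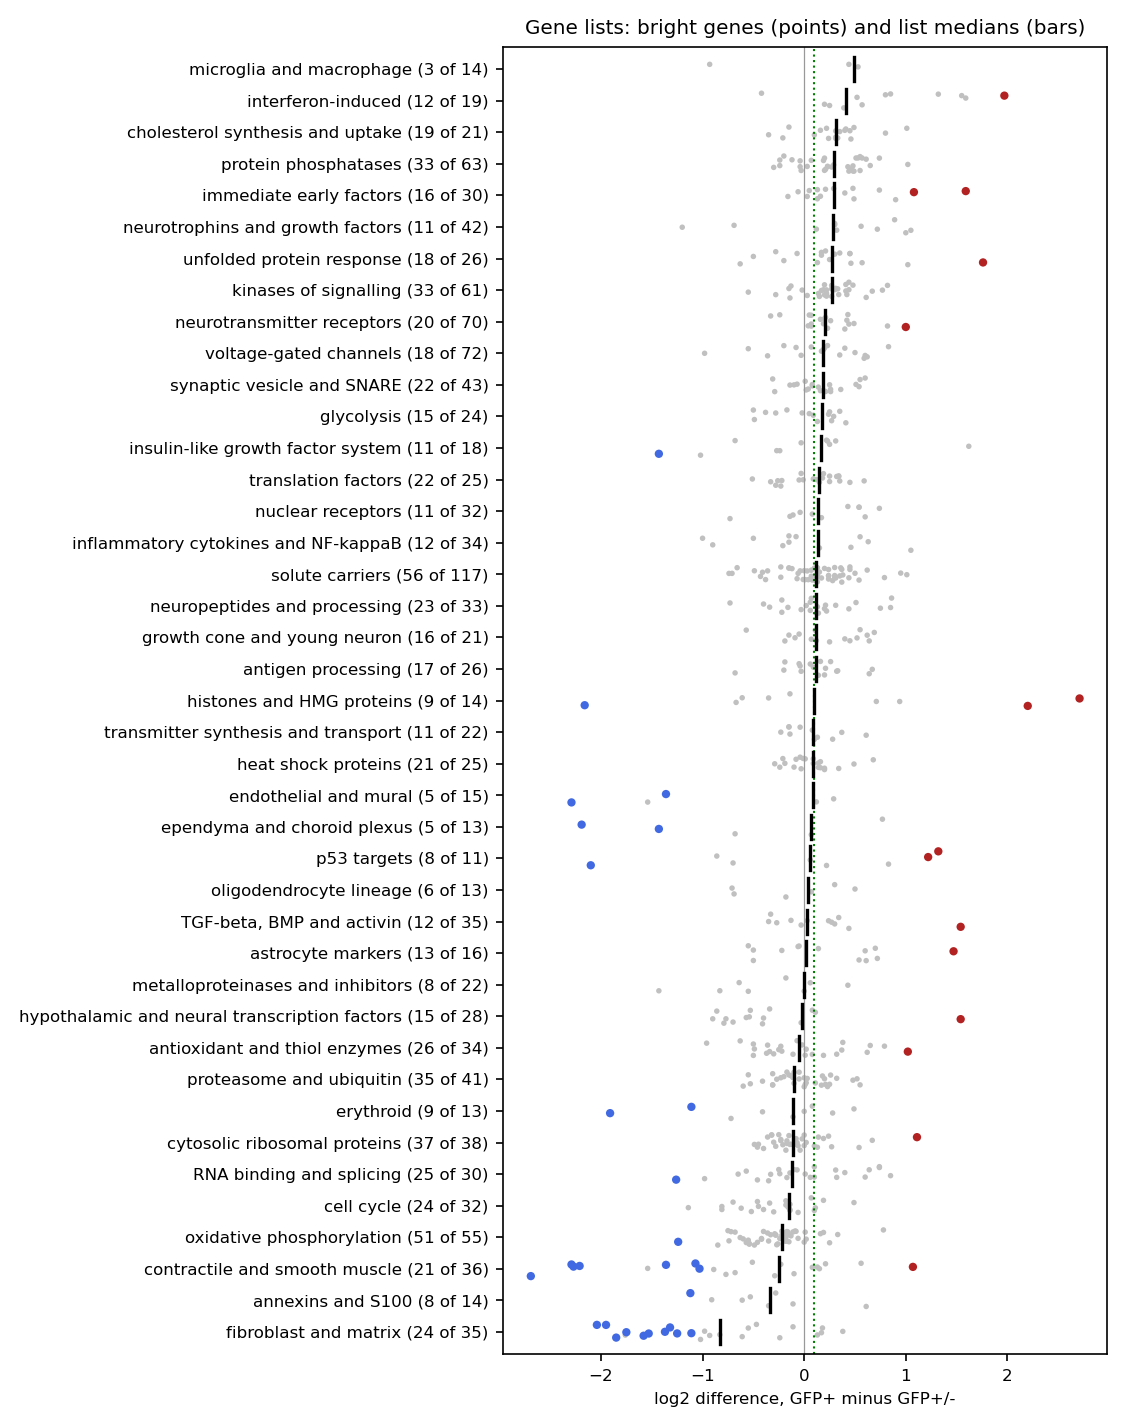
Log2 difference, GFP+ minus GFP+/-, for the bright genes of 41 gene lists (x axis). Red points rose and blue points fell past the test, black bars are medians of all members of a list, brackets give bright of all members and the dotted line is the median of all 4682 genes, with most blue points in the fibroblast list (10) and the contractile list (7).

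Genes of the contractile apparatus held the largest fall among bright genes outside the tables, that of *Actg2*. Of 21 bright genes among 36 of the list, 7 fell and 1 rose, and 12 had both GFP+ arrays below both GFP+/- arrays. Among genes bright in both populations 4 fell and 1 rose, and *Tpm2* was bright in GFP+/- cells only. The relative median was -0.35. *Actg2*, the gamma actin of enteric smooth muscle, had signals of 239 and 184 in GFP+ against 1534 and 1194 in GFP+/- cells, and 161 on the NT array, a log2 difference of -2.69 (SE 0.24, limma, adjusted p = 3.11e-04). *Acta2*, the alpha actin of smooth muscle and myofibroblasts, had 1053 and 2375 against 6561 and 9059 and 441 in NT cells (-2.29, SE 0.34, adjusted p = 0.00704). For both smooth muscle actins the NT array lay below the 4 others and the GFP+/- arrays were the highest. The beta tropomyosin *Tpm2*, which lies along actin filaments, had 81.7 and 144 against 524 and 482 (-2.21, SE 0.32, adjusted p = 0.00592). *Tagln*, an actin cross-linking protein of smooth muscle, had 629 and 942 against 2136 and 1835 (-1.36, SE 0.25, adjusted p = 0.0138). The myosin light chains *Myl9* (-1.03, adjusted p = 0.0494) and *Myl12b* (-1.07, adjusted p = 0.0429) fell as well. A second bright probe set of *Myl9* was at -2.55 (adjusted p = 0.00257), whereas that of *Myl12b* was at -0.01 (adjusted p = 0.991). The probe set annotated as the heavy chain *Myh1* fell too (-2.27, adjusted p = 0.00219).

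One actin went the other way. *Acta1*, the alpha actin of skeletal muscle, had 473 and 351 in GFP+ against 213 and 178 in GFP+/- cells, and 277 on the NT array, a log2 difference of 1.07 (SE 0.26, limma, adjusted p = 0.0464). It did not pass with quantile normalization or with equal medians. The calponin *Cnn1*, at 92.7 and 228 against 463 and 385, did not pass (-1.54, adjusted p = 0.0525). Without the first GFP+ array *Actg2* (-2.88), *Acta2* (-1.70), *Tpm2* (-1.80) and *Myh1* (-2.21) still passed (limma, adjusted p between 0.0113 and 0.0495), and *Tagln* (-1.07) did not. Other *Acta2* probe sets ran from -0.64 to 0.31. The CArG box, the site at which serum response factor binds in many muscle genes, was looked for in its strict form on both strands of RefSeq promoters (assembly GRCr8, 250 bases before to 50 after a gene's start). It was found in 4 of 29 contractile genes with a promoter, *Acta1*, *Actg1*, *Myh4* and *Myl3*, and in 1.64% of all 33469 promoters. These 4 are not among the 7 genes that fell, and a missing match says only that these letters are not in this window.

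Matrix genes of fibroblasts fell most often. Of 24 bright genes among 35 of the list, 10 fell and 0 rose, 17 had both GFP+ arrays below both GFP+/- arrays, and the relative median was -0.93. The 3 chains of the main fibrillar collagens led. The study's text already reports collagen types I and III as diminished in GFP+ cells and associates them with glia. By RT-PCR it reports *Col3a* as absent from GFP+ cells. *Col1a1* had signals of 2181 and 4819 in GFP+ against 13508 and 13098 in GFP+/- cells, and 3468 on the NT array (log2 difference -2.04, SE 0.32, limma, adjusted p = 0.00821). *Col1a2* had 1686 and 4138 against 9100.1 and 10016, and 3834 in NT cells (-1.85, SE 0.35, adjusted p = 0.0152). *Col3a1* had 182 and 364 against 987 and 995, and 1318 in NT cells (-1.95, SE 0.30, adjusted p = 0.00810). In each of the 3 the second GFP+ array lay between the first and the GFP+/- arrays. The NT level was within the GFP+ range for both type I chains and above the other 4 arrays for *Col3a1*. A second, dim probe set of *Col3a1* was at 0.22. *Col5a2* had close values within each population, with 1191 and 1192 against 2531 and 2614 (-1.11, SE 0.21, adjusted p = 0.0141).

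Of the 19 bright members of the list that are not fibrillar collagens 6 fell. *Serpinh1*, the chaperone of procollagen, had 282 and 577 against 1253 and 1162 (log2 difference -1.58, SE 0.30, limma, adjusted p = 0.0166). The matricellular protein *Postn* (562 and 921 against 2182 and 1983) differed by -1.53 (adjusted p = 0.0108), the proteoglycan *Bgn* by -1.37 (adjusted p = 0.0121), the oxidase *Loxl1* by -1.32 (adjusted p = 0.0138) and fibronectin *Fn1* by -1.25 (adjusted p = 0.0171). A second bright probe set of *Loxl1* was at -0.74 and did not pass (adjusted p = 0.194). Dim probe sets of *Fn1* ran from -0.55 to 0.04 and that of *Bgn* was at -0.06. *Thy1*, a surface protein of fibroblasts and of many neurons, had 175 and 201 against 694 and 574 (-1.75, SE 0.23, adjusted p = 0.00411). It varied from -1.89 to -1.61 when one array was left out. *Mgp*, an inhibitor of calcification, differed by -1.76 but its GFP+ arrays, were at 637 and 2543 and it did not pass (adjusted p = 0.0664). Without the first GFP+ array 2 of the 10 passed, *Col3a1* (-1.45) and *Thy1* (-1.65), and without the second 13 members did. *Sparc*, a collagen-binding glycoprotein, had its arrays apart at -0.55 (adjusted p = 0.164), and 2 matrix genes had arrays apart the other way.

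**Figure D2:**
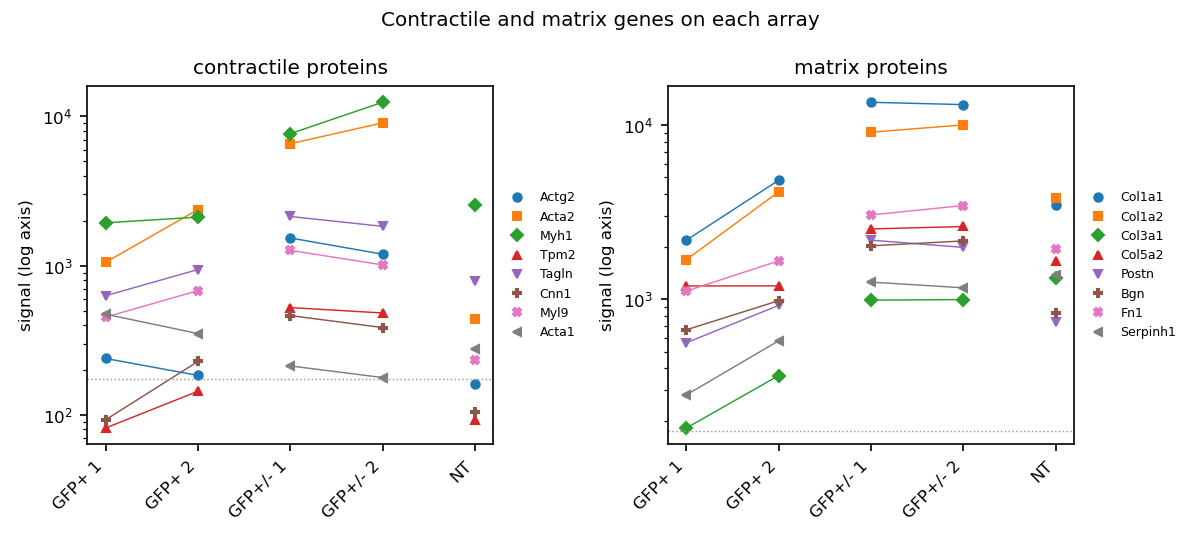
Signals (log axis) on each array for 8 contractile genes (left) and 8 matrix genes (right). Symbols are single arrays, lines join the 2 arrays of a population and the dotted line marks the bound of 175, and all genes shown lie higher on the GFP+/- than on the GFP+ arrays, except *Acta1*.

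Other genes of non-neuronal cells were described by smaller lists. Among metalloproteinases and their inhibitors 0 of 8 bright genes passed, and 3 had both GFP+ arrays below both GFP+/- arrays. The gelatinase *Mmp9* had 200 and 543 against 822 and 958, and 46.2 in NT cells (-1.43, limma, adjusted p = 0.0656). Of 8 bright annexin and S100 genes, which encode calcium-binding proteins, 1 fell and 6 had their arrays apart in that direction (75.0%, relative median -0.44). *Anxa1*, which binds phospholipids and dampens inflammation, had 368 and 465 against 914 and 889 (-1.12, SE 0.22, adjusted p = 0.0174). The study's text names annexin I too, beside the diminished transcripts, as a gene of cell cycle regulation. The glial *S100b* was the exception, with 556 and 620 against 493 and 299.9 (0.61, adjusted p = 0.213).

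Of 5 bright genes of vessels 2 fell, *Acta2* and *Tagln*, which the contractile list also holds. Of 5 bright genes of ependyma and choroid plexus 2 fell as well. The choroid plexus transcript *Ttr* (transthyretin, a carrier of thyroid hormone) fell by 2.19 on the log2 scale (SE 0.26, limma, adjusted p = 0.00257). Its signals were 2961 and 5060 in GFP+ against 18147 and 17266 in GFP+/- cells, and 3587 on the NT array, and its second probe set differed by -1.92. *Igf2*, a growth factor of choroid plexus and meninges, fell too, with 386 and 620.4 against 1413 and 1233 (-1.43, SE 0.26, adjusted p = 0.0135), though its 5 other probe sets ran from -0.53 to 1.19. Of 9 bright erythroid genes 2 fell, both globins of red blood cells, and 1 fell among genes bright in both populations. *Hba-a3* had 100.5 and 112 against 447 and 356 and 44.7 in NT cells (-1.91, SE 0.30, adjusted p = 0.00828). *Hbb* had 3072 and 3385 against 8361 and 5759.7 and 254 in NT cells (-1.11, SE 0.24, adjusted p = 0.0272). Neither globin passed without the first GFP+ array, and *Alas2*, the first enzyme of heme synthesis in red cells, had its arrays apart the other way (0.49, adjusted p = 0.333).

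Glial lists had no common direction. Of 13 bright astrocyte genes 1 rose and 0 fell, 6 lay above and 3 below, and the relative median was between -0.08 and 0.04 under the 3 scalings. The gene that rose was bright in GFP+ cells only, and 0 passed among genes bright in both populations. *Aldh1l1*, a folate enzyme used as an astrocyte marker, had 509 and 333 in GFP+ against 139.6 and 159 in GFP+/- cells, and 272 on the NT array (log2 difference 1.47, SE 0.28, limma, adjusted p = 0.0155). The lipid carrier *Apoe* (0.70, adjusted p = 0.212) and the glutamate transporter *Slc1a3* (0.54, adjusted p = 0.257) had arrays apart in that direction, and *Aldoc* (-0.50, adjusted p = 0.206) in the other. Of 6 bright genes of the oligodendrocyte lineage none passed, with *Mag* at 0.50 (adjusted p = 0.217) and *Pdgfra*, the receptor that marks its precursors, at -0.69 (adjusted p = 0.145). A second bright probe set of *Mag* had the other sign, at -0.32. Microglial genes were mostly dim, with 3 bright of 14 and 0 passed, and their relative median of 0.39 was the highest of the 41 lists. *Csf1r*, the receptor that microglia need to survive, was dim at 219 and 221 against 84.6 and 25.7. *Ctss*, a lysosomal protease of microglia, had 122 and 159 against 95.2 and 96.8, far under the 903 of NT cells.

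Interferon-induced genes had the highest list median after the microglial list, at 0.31 relative to all genes. Of 12 bright genes among 19, 1 rose and 7 had both GFP+ arrays above both GFP+/- arrays (58.3%). The gene that rose, *Cxcl10*, was bright in GFP+ cells only, and 0 passed among genes bright in both populations, with quantile normalization or with equal medians. For 3 members the bases before the start of transcription are shown, from RefSeq (GRCr8). A core of the interferon-stimulated response element, GAAANNGAAA on either strand, lies there and is set in capitals. Of all list members with this core, these 3 had the largest differences. This motif was chosen after the values were seen.
Cxcl10 (chr14:15988816-15989065, plus strand): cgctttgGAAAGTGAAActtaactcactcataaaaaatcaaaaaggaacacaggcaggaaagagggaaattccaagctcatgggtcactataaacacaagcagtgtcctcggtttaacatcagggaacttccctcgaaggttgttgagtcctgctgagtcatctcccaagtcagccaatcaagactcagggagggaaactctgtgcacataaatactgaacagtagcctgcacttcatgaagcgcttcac
Rsad2 (chr6:48788121-48788370, minus strand): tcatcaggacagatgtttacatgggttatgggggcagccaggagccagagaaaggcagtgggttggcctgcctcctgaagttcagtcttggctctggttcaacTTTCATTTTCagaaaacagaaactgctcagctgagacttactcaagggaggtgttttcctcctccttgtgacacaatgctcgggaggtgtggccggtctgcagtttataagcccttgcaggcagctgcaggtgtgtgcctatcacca
Gbp2 (chr2:234005477-234005726, plus strand): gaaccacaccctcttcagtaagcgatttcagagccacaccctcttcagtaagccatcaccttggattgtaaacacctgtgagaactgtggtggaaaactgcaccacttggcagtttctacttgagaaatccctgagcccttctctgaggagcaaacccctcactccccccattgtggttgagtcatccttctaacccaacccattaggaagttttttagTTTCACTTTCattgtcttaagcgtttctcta

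The core was found in 9 of the 16 list members with a promoter (56.2%) and in 3.92% of all 33469 promoters. These 9 include *Ifitm3*, which lay the other way, and do not include *Mx1*. A match is a description and not a tested site. *Cxcl10*, a chemokine that draws T cells, had signals of 829 and 262 in GFP+ against 101 and 141 in GFP+/- cells, and 55.3 on the NT array (log2 difference 1.97, SE 0.47, limma, adjusted p = 0.0430). *Rsad2*, the antiviral protein viperin, had 3931 and 1483 against 619 and 1098 and 58.3 in NT cells (1.55, SE 0.41, adjusted p = 0.0612). *Mx1*, an antiviral GTPase, had 737 and 231 against 138 and 136 and 59.0 in NT cells (1.59, adjusted p = 0.0782). *Gbp2*, a GTPase that binds to pathogen vacuoles, had 612 and 161 against 129 and 124 and 4.48 in NT cells (1.32, adjusted p = 0.208). On these 4 probe sets the first GFP+ array was the highest of the 5 and the untransfected NT array the lowest. The second bright probe set of *Rsad2* had 368 and 235 against 82.9 and 154, with the NT array at 167. Summed microglial markers were higher in GFP+ cells too, and their part in these differences was not tested. Without the first GFP+ array *Cxcl10* differed by 1.14 (adjusted p = 0.251), and without the second 5 members of the list passed, so these calls depend on 1 array. *Ifitm3*, the brightest member, had arrays apart the other way (-0.42, adjusted p = 0.297).

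Of 17 bright genes of antigen processing 0 passed, 3 lay above and 2 below, and the relative median was between 0.02 and 0.06. The class II chains *RT1-DOa* (0.67, limma, adjusted p = 0.135) and *RT1-DMa* (0.64, adjusted p = 0.200) lay above. The class I gene *RT1-S3* lay below (-0.68, adjusted p = 0.187), though its second bright probe set was at 0.16. The class II chain *RT1-Bb* also had its arrays apart in that lower direction, at -0.19. Of 12 bright inflammatory genes 0 passed, 5 lay above and 4 below. The chemokine *Ccl2* had 1752 and 1327 in GFP+ against 4256 and 2185 in GFP+/- cells, and 133 on the NT array (adjusted p = 0.0981). The NF-kappaB inhibitor *Nfkbia* had 1171 and 1021 against 662 and 753 and 183 in NT cells (0.63, adjusted p = 0.132). *Lcn2*, an iron-binding protein of inflamed tissue, was nearly equal in GFP+ (3507 and 3557) and GFP+/- cells (3746 and 3703) beside 14.0 in NT cells.

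Of 18 bright genes of the unfolded protein response 1 rose and 0 fell, while 9 lay above and 1 below (relative median 0.17). *Ddit3* (CHOP), a transcription factor induced when proteins misfold in the endoplasmic reticulum, had 1331 and 751 in GFP+ against 369 and 237 in GFP+/- cells, and 199.7 on the NT array (log2 difference 1.76, SE 0.31, limma, adjusted p = 0.0125). The co-chaperone *Dnajb9* had 624 and 824 against 428 and 291 (1.02, SE 0.26, adjusted p = 0.0525). The chaperone *Hsp90b1* had 833 and 1019 against 669 and 572 (0.57, adjusted p = 0.170), and the translocon subunit *Sec61b* 3583 and 3749 against 5547 and 5781 (-0.63, adjusted p = 0.117). The endoplasmic reticulum stress element, CCAAT and CCACG with 9 bases between them, was found in 3 of 23 promoters of the list, *Hsp90b1*, *Calr* and *Canx*, and in 0.0657% of all promoters. *Ddit3* and *Dnajb9* were not among these 3, and *Canx* was at -0.20. The median log2 difference was 0.21 for members with the element and 0.28 for those with a promoter lacking it. The 2 copies of the element in *Hsp90b1* are set in capitals below, shown because *Hsp90b1* is the list member that holds a pair of them.
Hsp90b1 (chr7:23012294-23012543, minus strand): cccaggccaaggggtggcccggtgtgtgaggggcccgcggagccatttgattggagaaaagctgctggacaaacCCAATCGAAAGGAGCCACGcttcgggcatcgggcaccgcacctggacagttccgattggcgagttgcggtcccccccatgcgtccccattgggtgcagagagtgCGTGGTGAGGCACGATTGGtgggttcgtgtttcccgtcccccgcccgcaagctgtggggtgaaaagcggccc

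Of 21 bright heat shock genes 0 passed, 5 lay above and 0 below. The relative median was between -0.02 and 0.04. *Dnajb1*, a co-chaperone of Hsp70, had 1359 and 1510.4 against 901 and 889.9 (0.68, limma, adjusted p = 0.0991).

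Of 16 bright immediate early factors, the first genes to respond to a stimulus, 2 rose and 7 lay above with 0 below (relative median 0.19). *Nr4a3*, an orphan nuclear receptor, had 526 and 544 in GFP+ against 129 and 245 in GFP+/- cells, and 135 on the NT array (log2 difference 1.59, SE 0.31, limma, adjusted p = 0.0178). The kinase *Pim3* had close values within each population, 1097 and 1094 against 498 and 537, and 640 in NT cells (1.08, SE 0.21, adjusted p = 0.0162). The phosphatase *Dusp5* had 395 and 551 against 249 and 313 (0.74, adjusted p = 0.138). Without the first GFP+ array *Nr4a3* (1.61) and *Pim3* (1.08) kept their size but did not pass (adjusted p = 0.123 and 0.0944). The short site of the cyclic AMP response element, TGACG on either strand, was in 12 of 24 promoters of the list (50.0%) against 21.2% of all promoters, and the full site TGACGTCA, which holds the short one, in 3 of 24 (12.5%) against 1.83%. *Nr4a3* and *Pim3* were not among these 12.

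Targets of p53 had no common direction. Of 8 bright genes 2 rose and 1 fell, while 3 lay above and 3 below. The gene that fell was bright in GFP+/- cells only. Among genes bright in both populations 2 rose and 0 fell. *Cdkn1a*, the cell cycle inhibitor p21, had 545 and 581 in GFP+ against 297 and 196 in GFP+/- cells, and 137 on the NT array (log2 difference 1.22, SE 0.26, limma, adjusted p = 0.0277), with 1.24 on its other probe set. *Ccng1*, a cyclin that acts on p53 itself, had 1672 and 1020.1 against 532 and 516 but 2194 in NT cells (1.32, SE 0.26, adjusted p = 0.0174). *Gadd45a*, a growth arrest protein, had 99.8 and 128 against 354 and 665 and 171 in NT cells (-2.10, SE 0.33, adjusted p = 0.00821). Its 3 other probe sets ran from -0.35 to 0.55, so the fall rests on the brightest one. Of 26 bright antioxidant genes 1 rose, the glutathione transferase *Gstm7* (1.02, adjusted p = 0.0406), while 11 lay below and 3 above (relative median -0.15). *Gstm7* did not pass with quantile normalization or with equal medians. The quinone reductase *Nqo1* had 3786 and 2308 against 2119.5 and 1386 (0.79, adjusted p = 0.153). *Gclm*, a subunit of the enzyme that starts glutathione synthesis, had 132 and 179 against 279 and 320 (-0.96, adjusted p = 0.0755).

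**Figure D3:**
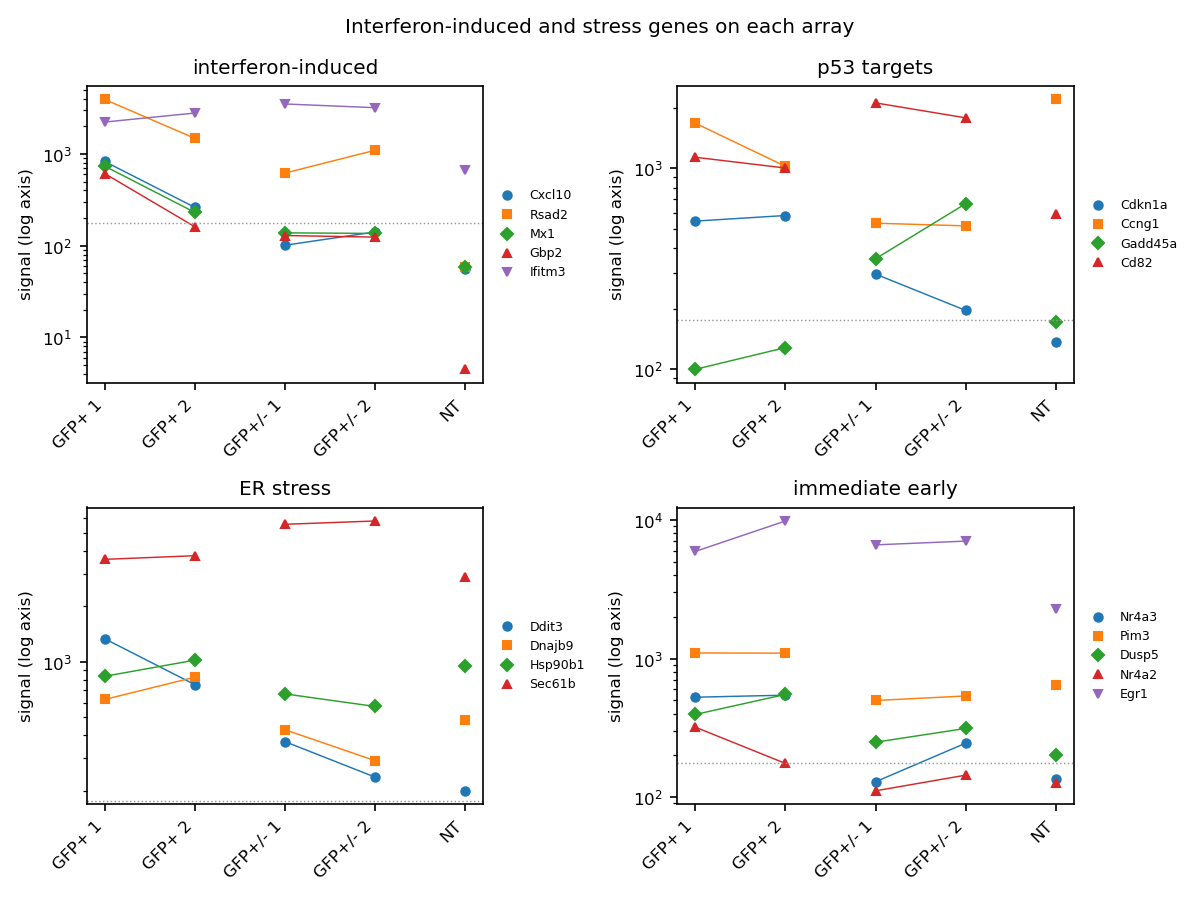
Signals (log axis) on each array for interferon-induced genes, p53 targets, genes of endoplasmic reticulum (ER) stress and immediate early genes. Symbols are single arrays, lines join the 2 arrays of a population and the dotted line marks the bound of 175, and *Cxcl10*, *Mx1*, *Gbp2* and *Rsad2* are, on the probe sets shown, highest on the first GFP+ array and lowest on the NT array.

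Neuronal lists had medians closer to that of all genes than the matrix list had, and few members passed the test. The relative medians were 0.09 for synaptic vesicle genes, 0.09 for transmitter receptors, 0.09 for voltage-gated channels and 0.02 for neuropeptides and for growth cone genes. Of 20 bright receptor genes 1 rose and 8 lay above with 1 below. That gene was *Gabrb2*, a subunit of the GABA-A receptor, with 789.6 and 777 in GFP+ against 419 and 366 in GFP+/- cells, and 2658 on the NT array (log2 difference 1.00, SE 0.21, limma, adjusted p = 0.0247). It did not pass with quantile normalization. All 5 bright GABA and glycine receptor genes had both GFP+ arrays above both GFP+/- arrays. Among them were *Gabra5*, with 222 and 181 against 104 and 124 and 826 in NT cells (0.82, adjusted p = 0.121), and the glycine receptor *Glra2*, with 500.3 and 544 against 318 and 468 and 1778 in NT cells (0.44, adjusted p = 0.336). *Gabrb2*, *Gabra5* and *Glra2* were all brightest on the NT array.

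Of 18 bright channel genes 0 passed, 6 lay above and 4 below. *Cacna2d1*, an auxiliary subunit of calcium channels, had 6095 and 3467 against 2724 and 2462 (0.83, limma, adjusted p = 0.120). The N-type channel *Cacna1b* had 593 and 716 against 417 and 442 (0.60, adjusted p = 0.148), and the inward rectifier *Kcnj1* 168 and 84.6 against 254 and 219 (-0.98, adjusted p = 0.151). A second bright probe set of *Cacna1b* was at 0.07 and its arrays overlapped. Of 22 bright synaptic genes 0 passed and 8 lay above with 2 below, led by the vesicle protein *Syp* (0.60, adjusted p = 0.233) and the dynamin *Dnm1* (0.55, adjusted p = 0.234). Of 11 bright genes of transmitter synthesis and transport 0 passed. *Gad1*, which makes GABA, had 2385 and 2329 against 1328 and 1804 (0.61, adjusted p = 0.159), while *Slc32a1*, which loads GABA into vesicles, had 1353 and 1251 against 1435 and 1622 (-0.23, adjusted p = 0.581).

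Of 23 bright neuropeptide and processing genes 0 passed, 5 lay above and 4 below. The tachykinin precursor *Tac1* had 2695 and 1588 in GFP+ against 1116 and 1184 in GFP+/- cells (log2 difference 0.85, limma, adjusted p = 0.102). *Npy* had 389.7 and 294 against 185 and 187 (0.86, adjusted p = 0.0832), and the granule protein *Chgb* 1783 and 1101 against 765 and 907 (0.75, adjusted p = 0.138). The enkephalin precursor *Penk* had 185 and 251 against 336 and 379 (-0.73, adjusted p = 0.138). Of the enzymes that mature the TRH precursor, *Cpe* had 19866 and 19035 against 14465 and 19388 (0.22, adjusted p = 0.628) and *Pcsk2* 224 and 229 against 288 and 244 (-0.22, adjusted p = 0.661). The enzyme *Pam* was at 0.06 and its arrays overlapped. Of 16 bright growth cone genes 0 passed and 7 lay above with 1 below. *Ina*, an intermediate filament of young neurons, had 1265 and 944 against 739 and 623 (0.69, adjusted p = 0.129). *Crmp1* and *Stmn4*, which act on microtubules in growth cones, differed by 0.62 and 0.64 (adjusted p = 0.138 and 0.154), and *Nrcam*, an adhesion molecule of axons, by -0.57 (adjusted p = 0.150).

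4 genes known from neurons that these lists do not hold are given because they passed, chosen on their values. *Nefl*, the light chain of neurofilaments, had 578 and 395 in GFP+ against 168 and 161 in GFP+/- cells, and 742 on the NT array (log2 difference 1.54, SE 0.25, limma, adjusted p = 0.00957). The pentraxins *Nptx1* and *Nptx2*, secreted proteins that cluster glutamate receptors, had 339 and 251 against 80.8 and 102 (1.69, SE 0.32, adjusted p = 0.0154) and 642 and 749.7 against 376 and 346 (0.94, SE 0.22, adjusted p = 0.0382). The phospholipase *Plcb4*, of metabotropic receptor signalling, had 794 and 458 against 273 and 225 (1.29, adjusted p = 0.0291). *Nefl*, *Nptx1* and *Plcb4* were lower on the second GFP+ array, and none of the 4 passed without the first. *Nefl* and *Nptx1* were bright in GFP+ cells only. Other probe sets were at 0.48 for *Nefl*, -0.17 and 1.55 for *Nptx1*, 0.30 for *Nptx2* and -0.72 for *Plcb4*. The medium chain *Nefm* differed by 0.65 and did not pass.

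**Figure D4:**
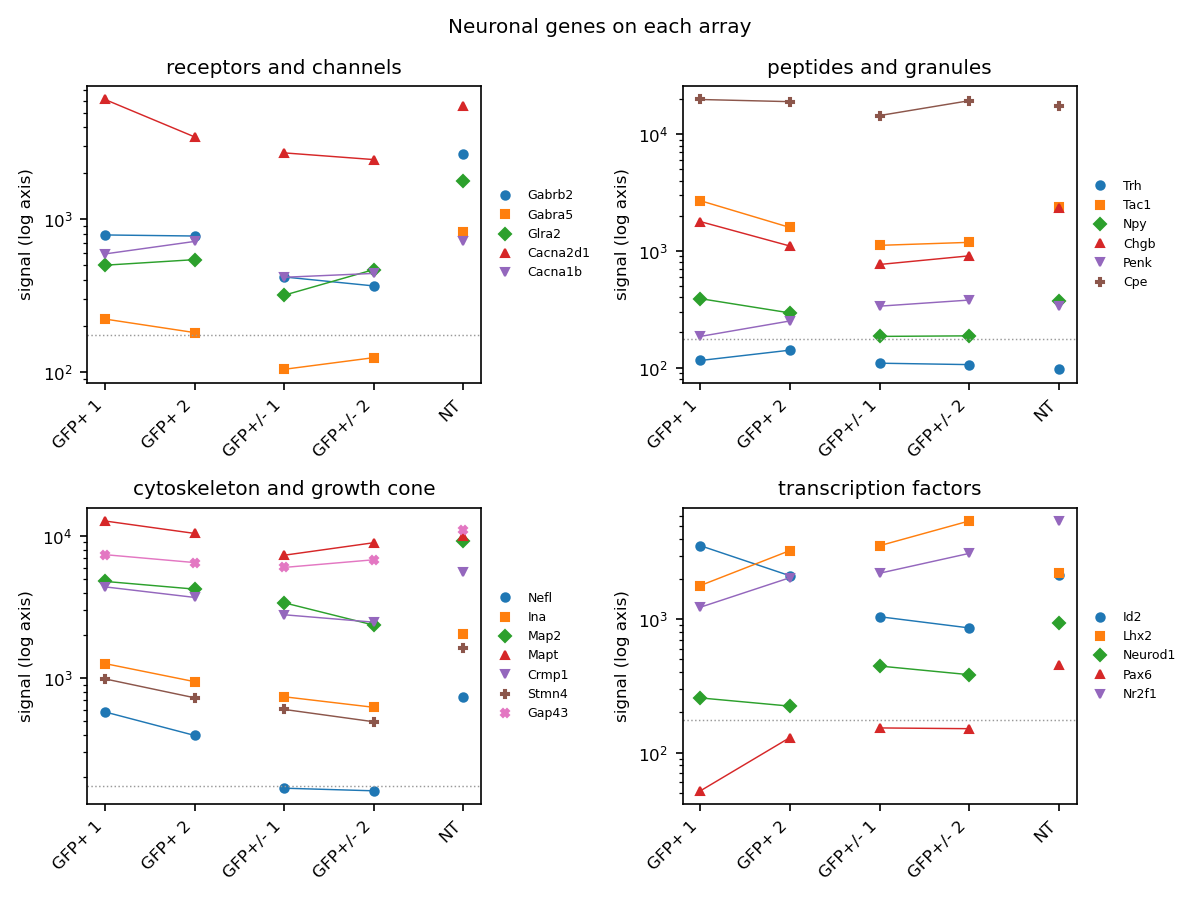
Signals (log axis) on each array for receptors and channels, peptides and granule proteins, cytoskeletal genes and transcription factors. Symbols are single arrays, lines join the 2 arrays of a population and the dotted line marks the bound of 175, and *Gabrb2*, *Nefl* and *Id2* passed the test, *Trh* is dim on all arrays, and *Gabrb2*, *Gabra5* and *Glra2* are brightest on the NT array.

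Transcription factors of the developing hypothalamus lay below more often than above. Of 15 bright genes 1 rose, 8 lay below (53.3%) and 1 above, and the relative median was -0.12. The gene that rose was *Id2*, an inhibitor of basic helix-loop-helix factors, with 3569 and 2122 in GFP+ against 1046 and 862 in GFP+/- cells, and 2142 on the NT array (log2 difference 1.54, SE 0.27, limma, adjusted p = 0.0123). *Lhx2*, a LIM homeodomain factor, had 1794 and 3283 against 3568 and 5471 (-0.86, adjusted p = 0.148). *Neurod1*, a proneural factor, had 257 and 223 against 446 and 384 and 943 in NT cells (-0.79, adjusted p = 0.0776). *Pax6* was at 51.6 and 129.6 against 153 and 151 (-0.90, adjusted p = 0.246). Of 11 bright nuclear receptors 0 passed, with *Nr1d1* of the circadian clock at 0.74 (adjusted p = 0.165) and *Nr2f1* (COUP-TFI) at -0.73 (adjusted p = 0.176).

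Growth factor genes included some large values that did not pass. Of 11 bright neurotrophins, growth factors and receptors 0 passed, 6 lay above and 2 below (relative median 0.18). *Fgf9*, a fibroblast growth factor of neurons, had 356 and 387 against 182 and 220.2 (log2 difference 0.89, limma, adjusted p = 0.0656). *Gfra1*, the GDNF co-receptor, had 222 and 207 against 118 and 91.7 (1.05, adjusted p = 0.0706), and *Ngfr*, the low-affinity neurotrophin receptor, 1103 and 588 against 376 and 431 (1.00, adjusted p = 0.0821). *Ntf3* (neurotrophin 3) had 108 and 257 against 372 and 392 (-1.20, adjusted p = 0.0970). In the insulin-like growth factor system, of 11 bright genes only *Igf2* passed. *Igf1* had 238 and 90.6 against 56.1 and 40.4 beside 1045 in NT cells (1.62, adjusted p = 0.0664), and counted as bright through the NT array. Its other probe sets, all dim, ran from -1.19 to 0.45. *Igfbp5*, which binds both growth factors, had 169 and 121 against 296 and 284 (-1.02, adjusted p = 0.0878). Of 12 bright genes of TGF-beta, BMP and activin signalling *Id2* alone passed, and 4 others lay above or below with values from -0.35 to 0.44.

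Protein phosphatases were listed by symbol, as the catalytic and regulatory subunits of serine/threonine phosphatases, the receptor and non-receptor tyrosine phosphatases and the dual-specificity phosphatases. Of 33 bright genes of this list 0 passed, though *Ptp4a1*, a tyrosine phosphatase that the list does not hold, rose (1.03, limma, adjusted p = 0.0225). In the list 20 had both GFP+ arrays above both GFP+/- arrays (60.6%, against 30.4% of all bright genes) and 0 had them below. The relative median was 0.19. The receptor phosphatase *Ptpra* had 437 and 335 in GFP+ against 208 and 172 in GFP+/- cells (log2 difference 1.02, SE 0.26, limma, adjusted p = 0.0526). *Ptprn*, found in dense-core granules, had 599 and 534 against 392 and 333 (0.65, adjusted p = 0.133), and the regulatory subunit *Ppp2r2a* 6089 and 4867 against 3908 and 3273 (0.61, adjusted p = 0.153). Of 33 bright genes in the list of signalling kinases, which does not hold *Pim3*, 0 passed, 16 lay above (48.5%) and 2 below (relative median 0.17). The atypical kinase *Prkcz* had 534 and 388 against 281 and 237 (0.82, adjusted p = 0.0974) and *Camkv*, a kinase-like protein of neurons, 489 and 358 against 324 and 214 (0.67, adjusted p = 0.194). The relative median of phosphatases was between 0.19 and 0.21 and that of kinases between 0.16 and 0.17 under the 3 scalings.

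Of 56 bright solute carriers 0 passed, 19 lay above and 9 below, near the shares of all bright genes. *Slc12a5*, the neuronal chloride exporter KCC2, had 207 and 391 against 141 and 142 and 1091 in NT cells (log2 difference 1.01, limma, adjusted p = 0.0974). The neuronal glutamate transporter *Slc1a1* had 723 and 588 against 256 and 443 (0.95, adjusted p = 0.0864). *Slc25a5*, the ADP/ATP carrier of mitochondria, had 6233 and 7009 against 11326 and 10776 (-0.74, adjusted p = 0.0720).

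Of 51 bright oxidative phosphorylation genes 1 fell and 0 rose, 31 had both GFP+ arrays below both GFP+/- arrays (60.8%, against 21.2% of all bright genes) and 2 had them above. The relative median was -0.32, or -0.20 with quantile normalization. *Ndufb1*, a subunit of complex I, had 273 and 159 in GFP+ against 444 and 546 in GFP+/- cells (log2 difference -1.24, SE 0.29, limma, adjusted p = 0.0391). The complex I subunits *Ndufc2* (4735 and 4536 against 7672 and 9044) and *Ndufa5* (1445 and 2030.3 against 2696 and 3094) differed by -0.85 (adjusted p = 0.0514) and -0.75 (adjusted p = 0.102). Among the 2 was *Cox6c* of complex IV, at 314 and 379 against 216 and 186 (0.78, adjusted p = 0.123), though its second probe set was at -0.43. Of 15 bright glycolysis genes 0 passed, 5 lay above and 5 below. The platelet isoform of phosphofructokinase, *Pfkp*, differed by 0.41 (adjusted p = 0.336) and phosphoglycerate kinase *Pgk1* by -0.38 (adjusted p = 0.320).

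Housekeeping lists of protein making and breakdown depended on the scaling. Of 37 bright cytosolic ribosomal protein genes 16 lay below and 4 above, with a relative median of -0.21, or -0.01 with quantile normalization. 1 rose, *Rpl19l4*, whose probes may also bind transcripts of *Rpl19*, at 1036 and 864 against 418 and 462 (log2 difference 1.11, SE 0.22, limma, adjusted p = 0.0185). *Rpl41* differed by -0.49 (adjusted p = 0.229). Of 35 bright proteasome and ubiquitin genes 0 passed, 11 lay below and 6 above, with a relative median of -0.20, or -0.02 with quantile normalization. The core subunit *Psmb4* had 13487 and 16169 against 21327 and 23632 (-0.60, adjusted p = 0.138) and the regulatory subunit *Psmd2* 10364 and 8035 against 7599.8 and 5086 (0.55, adjusted p = 0.236). Of 22 bright translation factors 0 passed, 6 lay above and 5 below. Of 25 bright RNA-binding and splicing genes 1 fell, the spliceosome protein *Snrpd3* (634 and 829.7 against 1397 and 2158, -1.26, adjusted p = 0.0235). *Srsf2* and *Hnrnpa1*, both splicing regulators, stood the other way at 0.85 (adjusted p = 0.0655) and 0.74 (adjusted p = 0.0735), though 3 other *Hnrnpa1* probe sets ran from -0.53 to -0.34.

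Of 19 bright genes of cholesterol and fatty acid synthesis 0 passed, 10 lay above (52.6%) and 2 below, and the relative median was 0.21. The desaturase *Scd* had 283 and 213 in GFP+ against 128 and 116 in GFP+/- cells, and 623 on the NT array (log2 difference 1.01, limma, adjusted p = 0.0614). *Idi1*, of the isoprenoid pathway, had 505 and 258 against 216 and 199.5 beside 2301 in NT cells (0.80, adjusted p = 0.162). Outside the list, choline kinase *Chka* had 517 and 381 against 183 and 153 (1.41, SE 0.25, adjusted p = 0.0138). *Pcyt2*, also outside it, had 1121 and 723 against 483 and 308 (1.22, SE 0.29, adjusted p = 0.0410). Other *Chka* probe sets ran from -1.17 to 0.60, and a second bright probe set of *Pcyt2* was at 0.64 (adjusted p = 0.213).

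**Figure D5:**
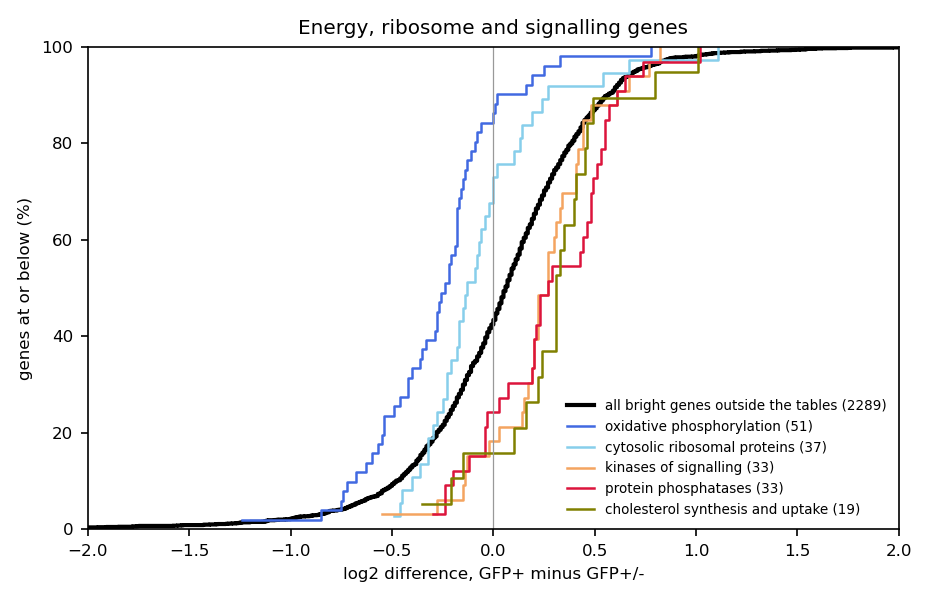
Cumulative share of genes (y axis, %) at or below a log2 difference, GFP+ minus GFP+/- (x axis), for bright genes of 5 lists (numbers in brackets) and for all 2289 bright genes outside the tables (black). The dark blue curve of oxidative phosphorylation lies left of the black one, with a list median of -0.22 over all its members, and the red curve of protein phosphatases right of it, with 0.29.

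Of 24 bright cell cycle genes 0 passed, 6 lay below and 3 above (relative median -0.25). *Cdk1*, the kinase of mitosis, had 456 and 826 against 1146 and 1013 (log2 difference -0.81, limma, adjusted p = 0.137), the primase *Prim1* 328 and 334 against 663 and 506 (-0.81, adjusted p = 0.0779) and the dUTPase *Dut* 637 and 1787 against 1790 and 3070.5 (-1.14, adjusted p = 0.153). *Rpa3*, which coats single-stranded DNA, fell by 1.78 (SE 0.38, adjusted p = 0.0269), with 164 and 416 against 724 and 1111 and 1806 in NT cells. Histone and HMG genes went both ways. *Hist4h4* had 2530 and 505 in GFP+ against 202 and 148 in GFP+/- cells (2.71, SE 0.57, adjusted p = 0.0250), and *H4cl1* 1039.9 and 255 against 134 and 93.4 (2.20, SE 0.52, adjusted p = 0.0430). Both encode histone H4 and may share transcripts on these probes, and both were far higher on the first GFP+ array. Neither passed with quantile normalization, and *H4cl1* was bright in GFP+ cells only. *Hmgb2*, a chromatin protein of dividing cells, had 212 and 327 against 921 and 1514 (-2.16, SE 0.29, adjusted p = 0.00431), though its second probe set was at 0.32.

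The other genes that passed belong to no list and were chosen after their values were seen, apart from *Lig4* and *Cyp2c23*, which the rule takes. DNA ligase IV, *Lig4*, of end joining, had 418 and 307 in GFP+ against 94.0 and 121 in GFP+/- cells (log2 difference 1.75, SE 0.30, limma, adjusted p = 0.0108). The cytochrome *Cyp2c23* differed by 1.40 (adjusted p = 0.0219), the chromatin remodeller *Chd2* by 1.17 (adjusted p = 0.0219), *Creg1* by 1.16 (adjusted p = 0.0356) and the lipid phosphatase *Mtmr7* by 1.12 (adjusted p = 0.0209). Among those that fell were the protease cathepsin K, *Ctsk* (-1.78, adjusted p = 0.0279), galectin 1, *Lgals1* (-1.25, adjusted p = 0.0253), the collagen receptor *Itga1* (-1.20, adjusted p = 0.0204), the actin adaptors *Pdlim1* (364 and 504 against 857 and 852, adjusted p = 0.0392) and *Arpc1b* (-1.12, adjusted p = 0.0170), and *Rcn3* (-1.27, adjusted p = 0.0175). A second bright probe set of *Arpc1b* was at -0.59 and did not pass (adjusted p = 0.194). *Lgals1* had 2373 and 2544 in GFP+ against 7589 and 4488 in GFP+/- cells, and 892 on the NT array. The Notch ligand *Dll3*, of neural progenitors, had 179 and 305 against 642 and 743 (-1.56, SE 0.28, adjusted p = 0.0125). Its second bright probe set was at -0.48 and did not pass (adjusted p = 0.312). *Pla1a* (-1.31), *Cyb5a* (-1.29), *Sem1* (-1.12) and *Btd* (-0.97) complete the 38, with other *Cyb5a* probe sets from -0.28 to 1.57.

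Of the 633 bright probe sets with no gene or several genes, 28 were higher (4.42%) and 16 lower (2.53%) among bright probe sets. They have no name here.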

How the data were processed

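RNA of GFP+, GFP+/- and NT cells was hybridised to rat oligonucleotide arrays, 2, 2 and 1 in number. The authors made one signal intensity per probe set and array with MAS 5.0, which sets matching against mismatching probes, and the deposited values are on a linear scale after scaling of each array. The trimmed means of the columns were equal, so depth is not known beyond the number of arrays. Detection calls were not used here.

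The 59 control probe sets were left out of 8799. Signals were raised to at least 1, converted to log2 and fitted in limma 3.58.1 (R 4.3.3) over 5 arrays with one mean per population and an intensity trend. Adjustment was made by the Benjamini-Hochberg method over 8740 probe sets and, after a second fit, over the 3586 with a mean signal above 175. limma assumes that arrays vary independently. The fit was also run on simulated data with known changes and independent noise on each array. That simulation held neither pooled RNA nor a deviating array, so it cannot vouch for the calls given here. Summaries used Python 3.11.15. Gene names came from the platform annotation, where 7006 probe sets had 1 gene, and 6996 of these had a gene in RefSeq (GRCr8). Genes of the 2 gene tables in the study's main text were left out. Genes named only in its running text or supplement were kept.

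The gene lists and members were chosen with earlier results of these data known. Genes were named by rule: the 12 higher and 12 lower genes with the largest difference, per list up to 4 bright genes with arrays apart and up to 2 with the highest signal, and defining markers. All other genes past the test were named after their values were seen. Alternatives were quantile normalization, equal medians, 16 added to signals, no intensity trend, 4 arrays only, a replicate block, other brightness bounds and each array left out.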

Additional observations from a re-analysis of the deposited data

How the results depend on the processing

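Over all probe sets 0 passed under the alternatives (limma), except with the replicate number as a block, where 1 higher and 1 lower did. Among bright probe sets the block gave 320 higher and 237 lower calls. The number does not pair the arrays by design, with deviations of same-numbered arrays correlated at 0.0632 over all and 0.197 over bright probe sets. With equal medians 118 were lower. With one array left out, higher calls ran from 15 to 120 and lower calls from 16 to 97, both lowest without the first GFP+ array and both highest without the first GFP+/- array. Bright probe sets 2-fold higher numbered 105, 68 with equal medians, 179 at the bound divided by 2, 66 at the bound multiplied by 2 and 86 to 160 with one array left out. Those 2-fold lower numbered 75, or 74 to 136 with one array left out. The cause of these shifts was not tested.

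Among the 64 genes past the test the sign did not change under any of these alternatives. Without the first GFP+ array 8 of them passed and with quantile normalization 50. *Canx* became 0.00 with quantile normalization and ran from -0.48 to 0.08 with one array left out. *Mbp* ran from -0.71 to 0.05. *Pecam1* was at -0.12 with quantile normalization and -0.13 with equal medians, and ran from -0.42 to 0.48 with one array left out. With 2 arrays of a population, taken from pooled RNA, the spread between cultures was not measured.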
